A study of Mus musculus with 186 samples.

Results

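Substantia nigra from 12-week Akap11 KO (knockout) mice was compared with substantia nigra from 12-week WT (wild-type) mice by bulk RNA-seq. The comparison took 5 KO and 5 WT libraries, selected by their labelled tissue, genotype and age, of 186 libraries in the whole study. The study sampled 6 brain regions at 4 and 12 weeks in WT, HET (heterozygous) and KO mice, and the 5 HET libraries of 12-week substantia nigra entered the same fit. The labels call the animals Akap11 mutant mice, and they give no strain, sex or mutant allele and no other treatment. Tissue was cut from frozen brain, so each library mixes all cell types of the dissected piece. The labels number the libraries of a group as separate samples without naming animals. The p-values below therefore measure the spread between these samples. Libraries are named by genotype and label number, such as KO 1.

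The substantia nigra is a midbrain nucleus. Its compact part holds dopamine neurons that project to the striatum, and its reticular part holds inhibitory GABA neurons. AKAP11 is an A-kinase anchoring protein: it binds regulatory subunits of protein kinase A (PKA), the cAMP-dependent kinase, it binds the kinase GSK3, and it acts as an autophagy receptor that delivers PKA regulatory subunits for degradation.

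The 15 nigral libraries of 12 weeks held 36.2 to 69.2 M counts each (M, mega), with a mean of 52.6 ± 9.85 M (SD, n = 15). Their dopamine neuron score, the mean log2(CPM + 1) of 21 dopamine neuron genes, here without TMM scaling because it spans regions, lay between 5.99 and 6.83, against at most 2.30 in the 75 libraries of the other 5 regions at 12 weeks. CPM stands for counts per M counts of the library, scaled by the trimmed mean of M values (TMM). Libraries WT 2 and WT 5 stood apart in the cortical excitatory marker Slc17a7, with 15.1 and 42.3 CPM against at most 3.95 CPM in the others. WT 2 also had a blood gene score of 3.53, against 0.219 to 1.14 in the other WT libraries. The Y-linked gene Ddx3y was present in all 15 libraries, at 51.9 to 96.2 CPM.

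Akap11 and 5 other genes fell in KO substantia nigra, and no gene rose at the same threshold. The 5 were Pmepa1, Gm21685, Fam210b, Vill and Gsg1l. Pmepa1 encodes an inhibitor of TGF-beta signalling, and Gm21685 is a copy of the nucleotidase gene Entpd4. Fam210b is a mitochondrial protein gene linked to haem synthesis in red cells. Vill is a villin-like gene of the actin-binding gelsolin family, and Gsg1l encodes an auxiliary subunit of AMPA glutamate receptors. The log2 changes of these 5 genes ran from -1.08 for Vill to -0.38 for Pmepa1. These 6 genes of 16490 tested, 0.0364%, were called at an adjusted p under 0.05 by edgeR's quasi-likelihood test with Benjamini-Hochberg adjustment, and the lower calls alone were also 0.0364%. At an unadjusted p under 0.05, 610 genes (3.7%) were lower and 408 (2.47%) were higher. The KO and WT values were fully apart in 196 genes (1.19%), of which 140 were lower in KO and 56 higher. The median log2 difference over all tested genes was -0.01, and 52.2% of them were lower in KO. In bulk tissue, fewer cells of a type and less RNA per cell cannot be told apart.

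The targeted gene Akap11 (ENSMUSG00000022016.16, chr14:78492246-78536808 on GRCm38, minus strand) was measured first. Its level was 18.5, 15.6, 17.7, 16.1 and 18.6 CPM in KO 1 to KO 5. The WT libraries had 250.8, 221.3, 208.0, 203.7 and 201.2 CPM, and the HET libraries 104.3, 99.3, 128.9, 132.4 and 115.4 CPM. The 3 genotypes did not overlap, and every library matched its label. The KO change was -3.65 ± 0.09 on the log2 scale (SE, adjusted p = 4.40e-14, edgeR), which is 92.0% lower than WT.

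Pmepa1 (ENSMUSG00000038400.15, chr2:173224458-173276533, minus strand) had 41.4, 41.2, 41.0, 40.8 and 41.8 CPM in KO 1 to KO 5. In WT 1 to WT 5 it had 51.0, 52.0, 57.2, 52.9 and 55.7 CPM. Every KO library lay below every WT library, and the KO libraries lay close together, with a mean of 41.2 ± 0.387 CPM against 53.7 ± 2.60 CPM in WT (SD, n = 5 each). The fall was -0.38 ± 0.05 in log2 (SE, adjusted p = 0.00269, edgeR), or 23.3%. The call held when each of the 10 libraries was left out in turn.

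**Figure D1:**
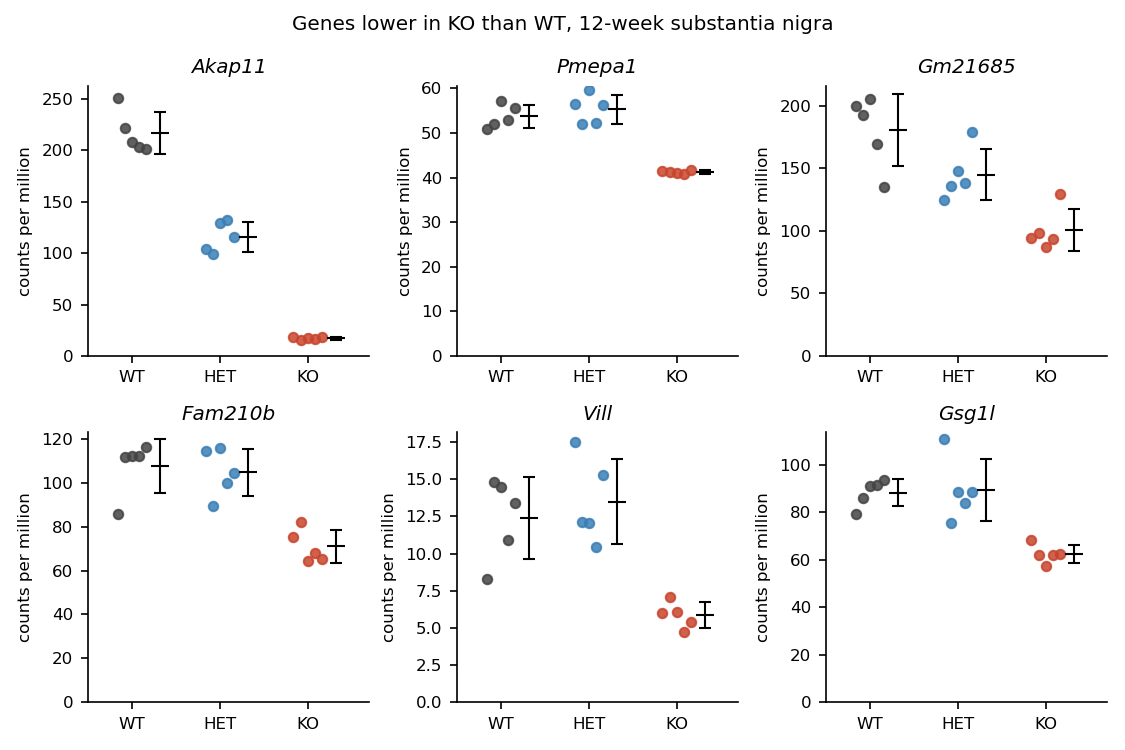
CPM (linear axes) of the 6 called genes in the 15 libraries of 12-week substantia nigra, by genotype. Points are libraries and bars are group means ± SD (n = 5). KO libraries lie below all WT libraries in each panel. HET libraries lie in the WT range or above for Pmepa1 and Vill, and between WT and KO for Akap11.

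Fam210b (ENSMUSG00000027495.4, chr2:172345565-172355749, plus strand) lies 868.7 kb from Pmepa1 on the same chromosome. It had 75.2, 82.0, 64.2, 68.0 and 65.4 CPM in KO 1 to KO 5. The WT libraries had 85.5, 111.5, 112.3, 112.1 and 116.1 CPM. The groups did not overlap, but WT 1 lay well below the other 4 WT libraries and close to KO 2. The fall was -0.60 ± 0.09 in log2 (SE, adjusted p = 0.0163, edgeR), or 34.0%. The call was lost without KO 3, KO 4 or KO 5, and without WT 2, WT 3, WT 4 or WT 5, with an adjusted p of at most 0.0956 (edgeR).

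Vill (ENSMUSG00000038775.14, chr9:119052778-119071525, plus strand) was counted at a low level, with 5.97, 7.11, 6.05, 4.70 and 5.43 CPM in KO 1 to KO 5. WT 1 to WT 5 had 8.29, 14.8, 14.4, 10.9 and 13.4 CPM. The groups did not overlap, and WT 1 was again the lowest WT library. Among the 6 called genes Vill had the largest fall after Akap11, at -1.08 ± 0.17 in log2 (SE, adjusted p = 0.0163, edgeR), or 52.6%. The call was lost without KO 1, KO 3, KO 4 or KO 5, and without WT 2, WT 3 or WT 5, with an adjusted p of at most 0.0956 (edgeR). Among the other 6 tested genes of the villin and gelsolin family, Capg had -0.42 and the rest lay between -0.11 (Svil) and 0.11 (Vil1), with no call.

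Gsg1l (ENSMUSG00000046182.8, chr7:125878420-126082411, minus strand) had 68.6, 62.0, 57.5, 61.9 and 62.6 CPM in KO 1 to KO 5. The WT libraries had 79.3, 86.2, 91.2, 91.5 and 93.5 CPM. Every KO library lay below every WT library. The fall was -0.50 ± 0.08 in log2 (SE, adjusted p = 0.0292, edgeR), or 29.3%. The call remained without KO 1 or WT 1 and was lost without any other of the 10 libraries, with an adjusted p of at most 0.236 (edgeR). It was the only call among 29 ionotropic glutamate receptor and AMPA auxiliary protein genes, whose median was -0.02 with 12 higher and 17 lower, in a list that included Gsg1l with its call known. The AMPA subunits Gria1, Gria2, Gria3 and Gria4 had differences of 0.02, -0.05, 0.06 and 0.04. An unconfirmed transcript, Gm44874, overlaps Gsg1l on the same strand.

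Gm21685 is listed as a synonym of Entpd4b in RefSeq (chr14:69555424-69585520, plus strand, on GRCm38), 8.94 Mb from Akap11. It had 94.5, 98.2, 87.3, 93.8 and 129.4 CPM in KO 1 to KO 5. The WT libraries had 199.9, 192.8, 205.5, 169.3 and 134.8 CPM. KO 5 was the highest KO library and WT 5 the lowest WT library, and the groups did not overlap. The fall was -0.84 ± 0.12 in log2 (SE, adjusted p = 0.0142, edgeR), or 44.3%. The call was lost without KO 3, KO 4, WT 2 or WT 3, with an adjusted p of at most 0.0933 (edgeR). All 8149 distinct 31-base words in the transcripts of Entpd4b also occur in Entpd4, so the split of counts between the copies is uncertain. Entpd4 alone had a difference of -0.63 ± 0.23 (adjusted p = 0.649, edgeR). Summed over both copies, KO 1 to KO 5 had 108, 112, 102, 107 and 149 CPM, and WT 1 to WT 5 had 223, 208, 230, 197 and 160 CPM. The groups of the sum did not overlap, and the summed fall was -0.82 ± 0.12 (adjusted p = 0.016, edgeR). The antisense genes Gm27176 and Gm27177 overlap Gm21685, with the use of strand in counting not given in the sources used here. Of 84 tested genes within 10 Mb of Akap11, 41 were lower and 43 higher, and Gm21685 was the only call beside Akap11 itself. An unadjusted p under 0.05 was found in 8.33% of these 84 genes and in 7.99% of 513 genes on the rest of the chromosome.

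The bases upstream of the start sites are printed for the called genes found in the RefSeq promoter table (GRCm38.p6). PKA signals in part through the factor CREB, and a part of CREB in these differences was not tested. Akap11, the targeted gene, had 2 starts in that table, and the first listed was used. Of the 6 called genes 4 matched, and none was found for Pmepa1 or Gsg1l. Each run is the 250 bases before the start, read 5′ to 3′ on the gene's strand, at chr14:78536861-78537110 (minus) for Akap11, chr14:69555151-69555400 (plus) for Entpd4b, chr2:172345327-172345576 (plus) for Fam210b and chr9:119052528-119052777 (plus) for Vill. Capitals mark the cAMP response element (CRE) half-site TGACG on either strand.
Akap11: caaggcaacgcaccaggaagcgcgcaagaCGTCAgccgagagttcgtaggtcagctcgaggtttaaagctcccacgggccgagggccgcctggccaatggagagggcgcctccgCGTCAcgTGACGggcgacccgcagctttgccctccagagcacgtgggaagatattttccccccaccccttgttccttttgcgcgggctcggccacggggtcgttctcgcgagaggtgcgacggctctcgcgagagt
Entpd4b: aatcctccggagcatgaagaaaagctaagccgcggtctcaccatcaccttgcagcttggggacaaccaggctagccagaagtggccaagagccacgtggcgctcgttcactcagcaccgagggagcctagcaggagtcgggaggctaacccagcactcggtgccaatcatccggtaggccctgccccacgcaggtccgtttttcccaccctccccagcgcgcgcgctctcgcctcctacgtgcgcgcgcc
Fam210b: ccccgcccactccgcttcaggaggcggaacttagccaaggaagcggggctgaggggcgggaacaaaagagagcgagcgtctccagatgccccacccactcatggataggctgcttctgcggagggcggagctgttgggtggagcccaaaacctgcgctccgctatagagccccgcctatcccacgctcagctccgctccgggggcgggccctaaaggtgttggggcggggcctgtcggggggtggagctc
Vill: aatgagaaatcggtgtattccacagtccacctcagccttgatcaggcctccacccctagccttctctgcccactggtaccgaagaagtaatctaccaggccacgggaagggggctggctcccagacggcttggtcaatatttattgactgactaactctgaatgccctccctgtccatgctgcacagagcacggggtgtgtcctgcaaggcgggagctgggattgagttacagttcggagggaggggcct
The Akap11 window held 3 half-sites, and the other 3 windows held 0. The full CRE, TGACGTCA, which contains the half-site on both strands, and the NR4A response element AAAGGTCA were searched on both strands and were in none of the 4 windows. Over 32851 promoter windows of the same length, 17.8% held the half-site, 1.55% the full CRE and 1.34% the NR4A element. These matches describe letters only.

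The genes next in rank did not pass the threshold. Nwd2, which encodes a protein with NACHT and WD repeat domains, had 42.3 to 49.4 CPM in KO and 54.3 to 75.0 CPM in WT, a difference of -0.55 ± 0.10 (adjusted p = 0.0617, edgeR). It passed in 4 other fits, without a low-count filter (adjusted p = 0.0378, edgeR), with only KO and WT in the fit (0.0373, edgeR), without WT 1 (0.00903, edgeR) and in DESeq2 (0.000188). The aldehyde dehydrogenase Aldh1a7 had -0.63, the amino acid transporter Slc7a8 -0.28, the ARF exchange factor Cyth4 -0.48, the MHC class II chaperone H2-DMa -0.33, Nrip3 -0.32 and Ttc12 -0.31. On the higher side, the lincRNA Gm10605 had 0.54, the kinase Stk26 0.53, the endothelial diaphragm gene Plvap 0.32, Ing1 0.17, Zbtb11 0.22, the collagen Col15a1 0.55, the phospholipase Plch2 0.39 and the carrier Slc25a30 0.27. All these genes had KO and WT libraries that did not overlap, which the ranking required. Gm10605 overlaps Tpbgl on the opposite strand.

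PKA subunits and other AKAP11 partners showed no call. Of 13 such genes, 7 were lower and 6 higher, with a median of -0.02. Prkar1a, the regulatory subunit RI-alpha of PKA, had the lowest value, and it had 737.5, 743.1, 748.6, 754.1 and 732.4 CPM in KO 1 to KO 5. Its WT values were 891.2, 866.3, 811.0, 840.5 and 876.3 CPM. Every KO library lay below every WT library, and the HET libraries overlapped both groups. The difference was -0.21 ± 0.05 (adjusted p = 0.416, edgeR), or 13.3% lower, and DESeq2 gave an adjusted p of 0.0211. The other regulatory subunits Prkar1b, Prkar2a and Prkar2b had -0.03, 0.02 and -0.06. The catalytic subunits Prkaca and Prkacb had -0.02 and 0.09. The PKA inhibitor genes Pkia, Pkib and Pkig had 0.14, 0.26 and -0.12. The kinases Gsk3a and Gsk3b had -0.03 and -0.06, and the endoplasmic reticulum tethers Vapa and Vapb had 0.02 and 0.00.

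Dopamine neuron genes were lower in KO in 20 of 21 cases, none of them called, with a median of -0.29 against -0.01 over all genes. At an unadjusted p under 0.05, 9 of the 21 were lower, beside 3.7% of all genes. These genes vary together across libraries, so the count is not 21 separate observations. Th, the rate-limiting enzyme of dopamine synthesis, had 727, 894, 588, 517 and 487 CPM in KO 1 to KO 5 and 687, 891, 962, 906 and 1028 CPM in WT 1 to WT 5. KO 1 and KO 2 lay in the WT range, and KO 3, KO 4 and KO 5 lay below every WT library. The difference in Th was -0.48 ± 0.15 (adjusted p = 0.649, edgeR). The dopamine transporter Slc6a3 had 1111 to 1661 CPM in KO and 1571 to 1903 CPM in WT, a difference of -0.42 ± 0.13. The vesicular monoamine transporter Slc18a2 had -0.48, dopa decarboxylase Ddc -0.43, Aldh1a1 -0.41, the D2 autoreceptor Drd2 -0.43, the GDNF receptor kinase Ret -0.33 and gamma-synuclein Sncg -0.22.

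No transcription factor of these neurons was called. En1 had -0.43, Pitx3 -0.37, En2 -0.35 and Lmx1b -0.19. Nr4a2 had -0.05, Foxa1 -0.14, Foxa2 -0.10 and Otx2 -0.08, and Lmx1a was the single member with a higher value, at 0.19. Calb1, a calcium-binding protein of more medial dopamine neurons, had -0.04. The nicotinic subunit Chrna6 had -0.29, the cofactor enzyme Gch1 -0.25 and the potassium channel Kcnj6 -0.19. The dopamine score was 5.98 to 6.51 in KO and 6.21 to 6.64 in WT, and the groups overlapped. The HET score was 6.36 to 6.82, with a median difference of 0.03 over the list.

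**Figure D2:**
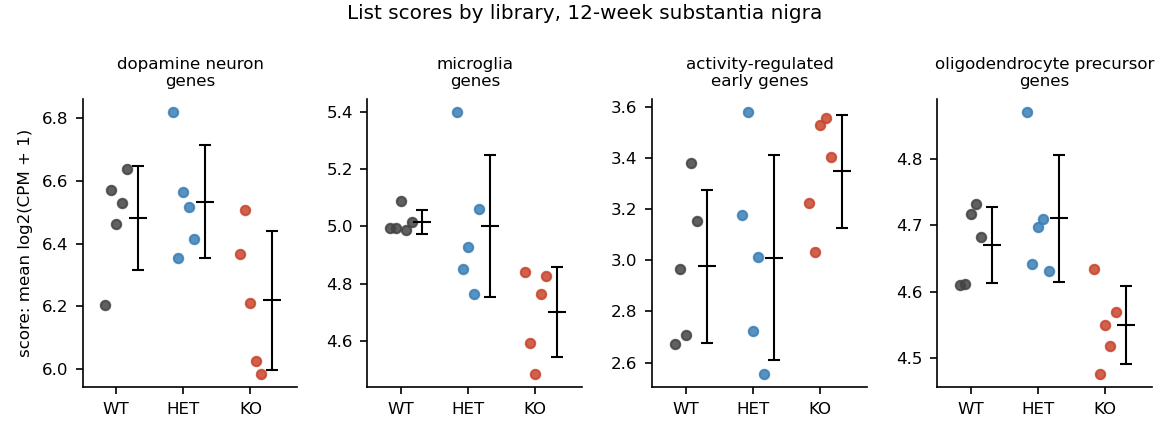
Scores, each the mean log2(CPM + 1) of a gene list, for dopamine neuron, microglia, activity-regulated and oligodendrocyte precursor genes in the 15 libraries by genotype. Points are libraries and bars are means ± SD (n = 5), on axes that do not start at 0. The microglia scores of KO (4.48 to 4.84) lie below those of WT (4.99 to 5.09), and the dopamine scores overlap.

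The called genes were set beside the dopamine score library by library. KO 2, with a score of 6.51, had 82.0 CPM of Fam210b, and WT 3 and WT 4, with scores of 6.46 and 6.53, had 112.3 and 112.1 CPM. WT 1 had the lowest WT score, 6.21, and the lowest WT values of Fam210b, Vill, Gsg1l and Pmepa1. Its Fam210b level was 85.5 CPM, close to that of KO 2. With the score as a covariate, which was chosen after seeing the data, the calls were 2, Akap11 and Gm21685. Fam210b then had -0.41 (adjusted p = 0.0747, edgeR) and Vill -0.80 (adjusted p = 0.212, edgeR). Gsg1l had -0.37 (adjusted p = 0.603, edgeR) and Pmepa1 -0.35 (adjusted p = 0.0625, edgeR). All 4 values stayed negative, and the 4 calls were lost.

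**Figure D3:**
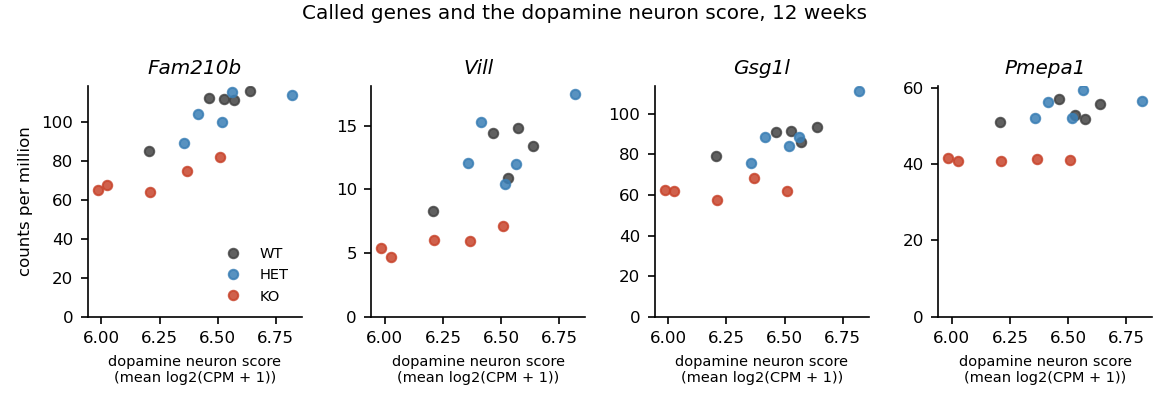
CPM of Fam210b, Vill, Gsg1l and Pmepa1 (y axes) against the dopamine neuron score (x axis) in the 15 libraries of 12-week substantia nigra, coloured by genotype. KO 1, KO 2 and KO 3 have scores in the WT range and less Fam210b (75.2, 82.0 and 64.2 CPM) than every WT library. The score of KO 3, 6.211, is barely above the lowest WT score, 6.206 in WT 1, which has 85.5 CPM.

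GABA neuron genes of the nigra were lower in 11 of 12 cases, none called, with a median of -0.14. In HET, against the same WT libraries, 11 of 12 were also lower, with a median of -0.13. Gad1, which makes GABA, had 488 to 707 CPM in KO and 593 to 913 CPM in WT, a difference of -0.32, and it was the single member with an unadjusted p under 0.05. Gad2 had -0.11, the vesicular transporter Slc32a1 -0.18 and Pvalb -0.09. The transcription factors Six3, Tal1, Gata3, Gata2 and Foxp1 had -0.47, -0.29, -0.25, -0.15 and -0.14. The potassium channels Kcnc1 and Kcna2 had -0.03 and 0.04. Pan-neuronal genes had a median of -0.03, with 3 of 10 higher and 7 lower. Among them the synaptic vesicle calcium sensor Syt1 had -0.27 and Rbfox3 had 0.29.

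Microglia genes were lower in KO in all 13 cases, none called, with a median of -0.35. At an unadjusted p under 0.05, 11 of 13 were lower, and in 9 of 13 KO and WT libraries did not overlap, beside 3.7% and 1.19% of all genes. The smallest adjusted p among them was 0.649 (edgeR). Here and in the other lists, members can vary together across libraries, so the counts are not separate observations. Csf1r, the receptor microglia need for survival, had 71.4 to 93.0 CPM in KO and 95.6 to 118 CPM in WT, a difference of -0.35 ± 0.10. The complement gene C1qb had 36.4 to 48.5 CPM in KO and 51.0 to 58.7 CPM in WT, a difference of -0.37 ± 0.11. Neither gene's groups overlapped. The fractalkine receptor Cx3cr1 had -0.39, C1qa -0.39, Tmem119 -0.36, Trem2 -0.36, the purinergic receptor P2ry12 -0.35, Aif1 -0.35, Cd68 -0.32, C1qc -0.32, Ctss -0.24 and Tyrobp -0.22. The score was 4.48 to 4.84 in KO, 4.99 to 5.09 in WT and 4.76 to 5.40 in HET. With this score as a covariate, also chosen after seeing the data, Akap11 was the single call, and Pmepa1 had -0.33 (adjusted p = 0.437, edgeR). Gm21685 then had -0.79 (adjusted p = 0.931, edgeR). Fam210b had -0.51, Vill -0.84 and Gsg1l -0.29, against -0.60, -1.08 and -0.50 without the covariate, each with an adjusted p of 1.00 (edgeR). The scores of KO and WT did not overlap, so genotype and score cannot be told apart in that fit.

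**Figure D4:**
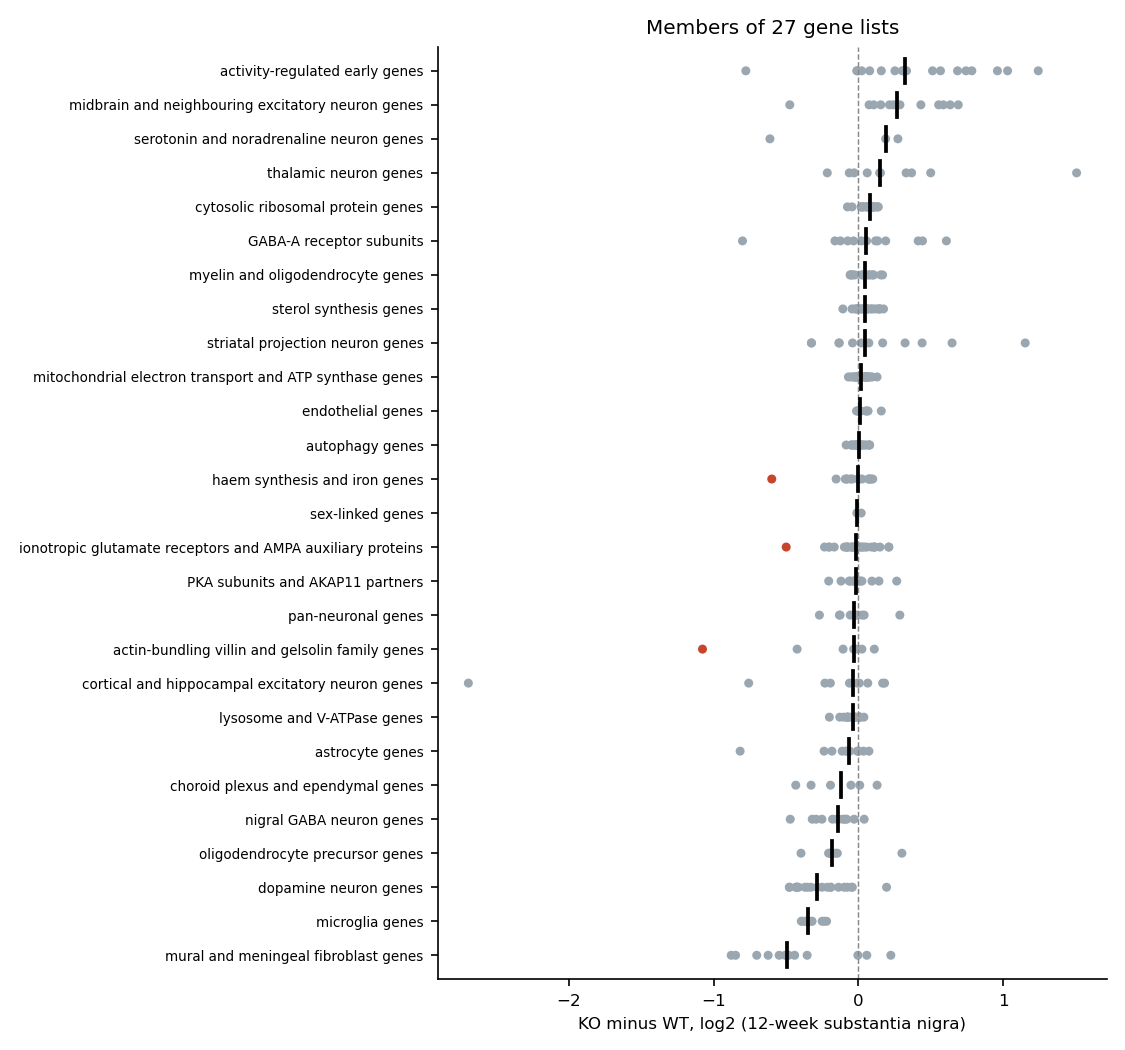
KO minus WT differences (log2, x axis) of the tested members of 27 gene lists in 12-week substantia nigra, with 1 point per gene, called genes in red and the list median as a black line. The microglia genes all lie below 0, and 20 of 21 dopamine neuron genes do. Blood genes are left out, because WT 2 stood apart in them.

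Oligodendrocyte precursor genes were lower in 7 of 8 cases, none called, with a median of -0.18. Gpr17 had -0.16, Pdgfra -0.15, Sox6 -0.20 and Cspg4 -0.21, and C1ql1 had 0.30. Their score was 4.48 to 4.63 in KO and 4.61 to 4.73 in WT. Myelin genes had a median of 0.05, with 10 of 15 higher. Astrocyte genes had a median of -0.07, with 8 of 12 lower and Gfap lowest at -0.82. Endothelial genes had a median of 0.01, with 6 of 10 higher. None of these lists held a call.

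Activity-regulated early genes were higher in KO in 15 of 18 cases, none called, with a median of 0.32. Fos, an immediate early transcription factor, had 17.8 to 44.2 CPM in KO and 7.19 to 26.5 CPM in WT, a difference of 1.03 ± 0.36 (adjusted p = 0.649, edgeR). Egr1 had 28.9 to 69.3 CPM in KO and 20.7 to 46.6 CPM in WT, a difference of 0.74 ± 0.26. Both genes overlapped between the groups. Fosb had 1.24, Npas4 0.33, Arc 0.16 and Homer1 0.02, and Egr2 had -0.78. Of the 18 genes 5 were higher at an unadjusted p under 0.05, beside 2.47% of all genes. The score was 3.03 to 3.55 in KO, 2.67 to 3.38 in WT and 2.55 to 3.58 in HET.

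Markers of neighbouring tissue and of other cell types also differed between libraries. Midbrain excitatory neuron genes were higher in 11 of 12 cases, none called, with a median of 0.26, where the glutamate transporter Slc17a6 had 0.43 and Cbln2 0.69. Their score was 3.41 to 3.72 in KO and 2.83 to 3.56 in WT. Thalamic neuron genes were higher in 7 of 10 cases, with a median of 0.15 and KO scores of 3.72 to 4.25 against 3.64 to 3.85 in WT. Cortical and hippocampal excitatory neuron genes had a median of -0.03 over 10 tested genes, where Slc17a7 had -2.69 with its 2 high values in WT 2 and WT 5, and the median was 0.13 without WT 5. Striatal projection neuron genes had a median of 0.04, with 7 of 12 higher. Mural and fibroblast genes had a median of -0.49, with 10 of 12 lower, and WT 4 had the highest score at 4.41. Without WT 4 that median was 0.01, so the lower value rests on this library. The choroid plexus gene Ttr was at most 0.479 CPM in every library, and 6 of its list of 10 genes were tested, with a median of -0.12. Of the serotonin and noradrenaline genes 3 of 6 were tested, with a median of 0.19, which turned to -0.03 without KO 5. The part of dissection in the differences above was not tested. Without WT 2 and WT 5, 3 genes were called, Akap11, Gm21685 and Pmepa1.

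The heterozygous libraries showed 1 call, Akap11 at -0.90 (adjusted p = 6.32e-05, edgeR), which is 0.00606% of 16490 genes, and the next adjusted p was 0.930. An unadjusted p under 0.05 was reached by 618 genes. This comparison uses the same WT libraries as that of KO. Pmepa1, Fam210b, Vill and Gsg1l had HET differences of 0.04, -0.04, 0.12 and 0.02, against KO falls of -0.38, -0.60, -1.08 and -0.50. Gm21685 had -0.32 in HET and -0.84 in KO, and the sum of both copies -0.32 and -0.82. The dopamine and microglia lists had HET medians of 0.03 and 0.01. The GABA neuron list had a HET median of -0.13, near its KO median of -0.14.

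At 4 weeks the nigral libraries were less alike. Of 17 libraries 4, WT 42, WT 92, KO 44 and KO 91, had dopamine scores of 2.62 to 3.59, against 4.80 to 6.33 in the other 13. The library labelled WT 92 also had 46.7 CPM of Akap11, against 195 to 243 CPM in the other WT libraries. Akap11 was the single call at 4 weeks, 0.00617% of 16218 genes, with 979 genes at an unadjusted p under 0.05, 31 calls in DESeq2, 2 edgeR calls without those 4 libraries and 3 without KO 91 alone. Scores of other cell types also differed at that age. The serotonin and noradrenaline score was 3.76 to 5.51 in 4 of 5 KO libraries and 0.40 in KO 91, against 0.16 to 1.67 in WT. The median KO difference was 5.97 over 3 tested genes. In HET that score was 5.34 and 3.11 in the highest libraries and at most 0.97 in the others. High values were therefore not limited to KO. Thalamic genes were lower in 10 of 10 cases with a median of -0.84, and their scores ran from 3.48 to 6.85 in KO and from 3.41 to 7.13 in WT. Mural and fibroblast genes were higher in 12 of 12 cases with a median of 0.84, with scores of 3.02 to 5.06 in KO and 2.88 to 4.13 in WT. The part of these markers and of the whole-number share in the 4-week values and in the differences between ages was not tested.

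At 4 weeks Pmepa1 had -0.10, Fam210b -0.22, Vill -0.14, Gsg1l 0.13 and Gm21685 -1.07, none called. WT 92, the library of low Akap11, had 361 CPM of Gm21685, against 124 to 211 CPM in the other WT libraries. The dopamine and microglia lists had medians of 0.25 and -0.05, and the activity list -0.21. The difference in KO effect between the ages was called for 0 of 16809 genes (0%) by edgeR, with 1261 at an unadjusted p under 0.05 and 17 calls in DESeq2. Without 4-week KO 91 it was called for 3 genes, and without 12-week WT 1 for 1. For Gsg1l that difference was -0.64 with an unadjusted p of 0.0071, from the fit across all genes in edgeR, and an adjusted p of 0.636.

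Across regions, Fam210b was the single gene whose KO effect in 12-week nigra differed from the mean effect in the other 5 regions, 0.0056% of 17860 genes. That difference was -0.63 ± 0.09 (SE, adjusted p = 1.30e-05, edgeR), with 771 genes at an unadjusted p under 0.05. The count of such differences was 23 without WT 1 and 7 without KO 2, and Fam210b was called in every fit with 1 library left out. Outside 12-week nigra, Fam210b had KO differences from -0.22 to 0.33 over 11 combinations of region and age, and none was called. In 12-week striatum it had 0.24. The WT level of Fam210b at 12 weeks was 108 CPM in substantia nigra, against 65.7 in thalamus, 46.5 in hippocampus, 37.0 in striatum, 22.3 in somatosensory and 17.7 in prefrontal cortex. The nigra thus had the highest WT mean of the 6 regions.

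The other called genes had no called region difference. Pmepa1 also fell in striatum, with -0.70 at 4 weeks (adjusted p = 0.00554, edgeR) and -0.60 at 12 weeks (adjusted p = 0.00162, edgeR), and it was lower in 10 of 12 combinations of region and age. Gsg1l also fell in 12-week striatum, with -0.45 (adjusted p = 0.00406, edgeR), and it was lower in 7 of 12. Vill was tested in 10 combinations, with values from -0.53 to 0.43 outside 12-week nigra and no other call. The sum of Gm21685 and Entpd4 was lower in KO in 12 of 12 combinations, from -1.04 to -0.38, with calls in 12-week nigra and in 12-week striatum (adjusted p = 0.00787, edgeR). It was lower in HET in 12 of 12 as well, from -0.39 to -0.16. The -1.04 in KO and the -0.39 in HET were those of 4-week nigra, where WT 92 had 361 CPM of the sum. Prkar1a was lower in KO in 12 of 12, from -0.37 to -0.02, and it was called in 12-week somatosensory cortex, with -0.25 (adjusted p = 0.0398, edgeR). Libraries of different regions that carry the same number may come from 1 animal, so the 12 values are not independent.

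**Figure D5:**
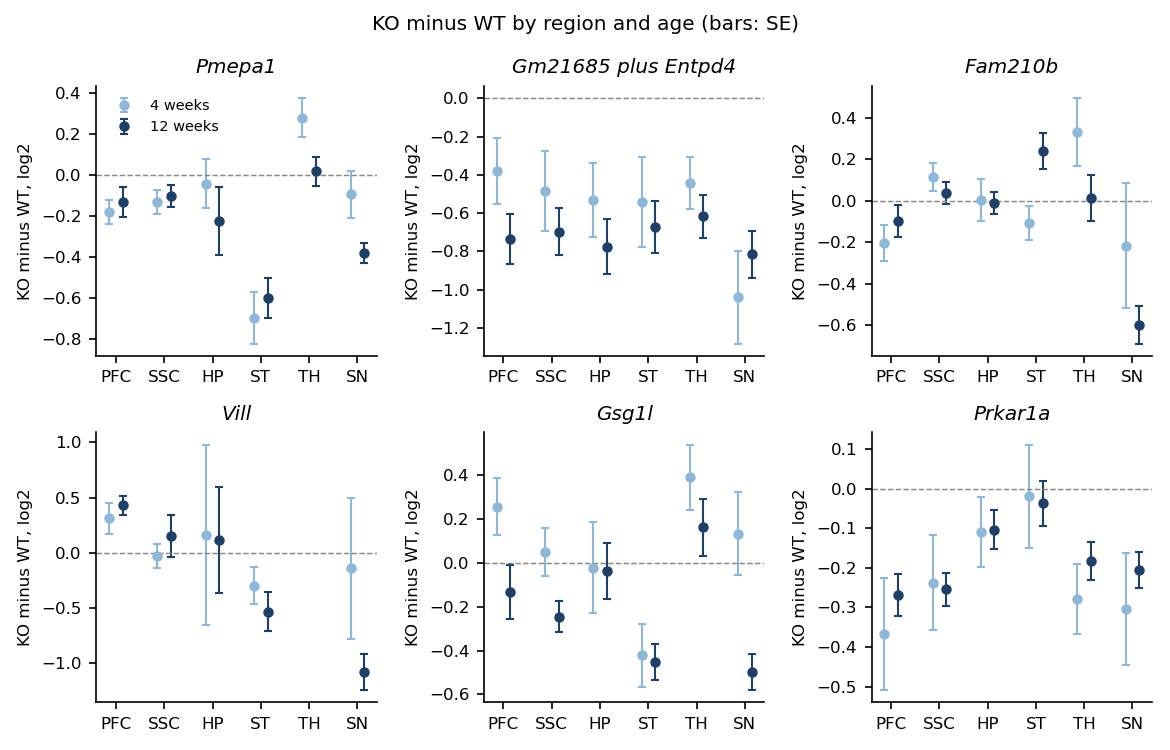
KO minus WT differences (log2, y axis) ± SE of Pmepa1, Gm21685 plus Entpd4, Fam210b, Vill, Gsg1l and Prkar1a in 6 regions (PFC, prefrontal cortex, SSC, somatosensory cortex, HP, hippocampus, ST, striatum, TH, thalamus, SN, substantia nigra) at 4 and 12 weeks. Vill did not pass the count filter in thalamus. Fam210b lies at -0.60 in 12-week nigra and between -0.22 and 0.33 elsewhere, and the summed copies lie below 0 at every point.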

How the data were processed

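Bulk RNA-seq of microdissected mouse brain was analysed from the authors' deposited table of expected counts per gene and library (28338 genes, 186 libraries). The libraries were made with a TruSeq Stranded mRNA kit, per the labels' protocols. Salmon and the build mm10 are named, per the submitters' processing notes. Versions, annotation and the use of strand in counting: not given in the sources used here. Of all values above 0, 77.9% were not whole, and expected counts were rounded. The 10 most abundant genes took 4.68% to 6.71% of a nigral library, and chi-square per degree of freedom was at least 14.5 over 30 pairs of replicates, so each library counted as 1 sample.

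The 15 libraries of 12-week substantia nigra, 5 per genotype, entered 1 edgeR 4.0.16 model in R 4.3.3 (TMM scaling, filterByExpr by genotype, glmQLFit, glmQLFTest), with no covariate. The p-values were adjusted by Benjamini-Hochberg over all genes tested, with calls at adjusted p under 0.05. The standard error is the log2 change divided by the square root of F. The same test was used at 4 weeks (17 libraries), for the difference between ages and for the difference between nigra and the other 5 regions. On simulated data for the KO comparison, with 16394 genes tested, the test recovered 35 of 65 genes changed by 0.5 in log2. It recovered 68 of 68 changed by 1, with 6 false calls. For the difference between ages it recovered 13 of 55 genes changed by 0.5 and 73 of 73 changed by 1, with 12 false calls. Every simulated gene had the same relative spread, and only well-counted genes were changed. More genes were changed than were called in the real libraries, which makes the adjusted threshold easier to pass. These shares therefore need not hold for the real libraries.

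There were 28 gene lists, described by counts and medians. The members and lists were chosen with earlier results of these data known, and the haem and iron, villin and glutamate receptor lists hold Fam210b, Vill and Gsg1l for that reason. Genes named are Akap11, every called gene, the 8 others of lowest p in each direction with mean log2 CPM of 1 or more and no overlap of KO and WT libraries, all PKA, dopamine and GABA neuron list members, and the 4 most abundant members of other lists. Further members were named after seeing their values. Some genes may not be reported here. Positions and identifiers come from GENCODE M21 by symbol (96.8% of tested genes matched), and promoters from RefSeq. Alternatives were other size factors, no filter, DESeq2 1.42.0, 1 surrogate variable (sva 3.50.0), only KO and WT in the fit, the replicate number as a block, limma-voom (limma 3.58.1), leaving out libraries, cell type scores as covariates and summed gene copies.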

Additional observations from a re-analysis of the deposited data

Results flagged for a closer look

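The difference in the KO effect on Fam210b between 12-week nigra and the other 5 regions, -0.63 ± 0.09 in log2 (adjusted p = 1.30e-05, edgeR), was picked out because the effects of 2 sets of regions differed by a test of that difference. It was also called with relative log expression size factors, without a filter, in DESeq2, in limma-voom with a block and with each of the 10 libraries left out.

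Single libraries lay far from the other 4 of their group in 14 of 142 groups tested, where the gap to the nearest library exceeded 0.71 of the group's range. Chance gives about 5% of groups for independent, normally distributed values. These groups hold related genes, some picked for no overlap of KO and WT libraries, so that share need not hold here. Among called and neighbouring genes, Gm21685 had 129 CPM in KO 5 against 87.3 to 98.2 in the other KO libraries, a gap of 0.740. Fam210b had 85.5 CPM in WT 1 against 112 to 116 in the other WT libraries, a gap of 0.850. H2-DMa had 8.37 CPM in WT 5 against 6.91 to 7.33, a gap of 0.714. Plvap had 14.5 CPM in KO 4 against 12.5 to 13.0, a gap of 0.746. Slc25a30 had 4.70 CPM in WT 2 against 5.32 to 5.50, a gap of 0.767.

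Among dopamine neuron genes, En2 had 10.2 CPM in WT 1 against 19.5 to 20.8 in the other WT libraries, a gap of 0.884. Sncg had 139 CPM in KO 2 against 92.2 to 105 in the other KO libraries, a gap of 0.720. Kcnj6 had 31.2 CPM in KO 2 against 21.7 to 23.1, a gap of 0.853, and 21.8 CPM in WT 2 against 27.6 to 30.0, a gap of 0.713. Among scores, the thalamic score was 4.25 in KO 4 against 3.72 to 3.87 (gap 0.715) and the cortical score 2.84 in KO 2 against 3.07 to 3.16 (gap 0.721). The microglia score was 5.09 in WT 3 against 4.99 to 5.02 (gap 0.719). In WT 2 the blood score was 3.53 against 0.219 to 1.14 (gap 0.722), and the score of sex-linked genes was 5.19 against 4.78 to 4.86 (gap 0.793).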

How the results depend on the processing

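No called gene changed sign in the settings run. The 6 calls of KO against WT at 12 weeks became 14 in DESeq2, 2 with the replicate number as a block, 2 with the dopamine score and 1 with the microglia score as a covariate, and 3 without WT 2 and WT 5. They were 2 to 11 with 1 library left out, namely 11 without WT 1, 3 without WT 5 and 2 without KO 3, KO 4, WT 2 or WT 3. Pmepa1 lost its call in 0 of 10 such fits, Gm21685 in 4, Fam210b and Vill in 7 each and Gsg1l in 8, where the largest adjusted p was 0.236 (edgeR). Same-numbered KO and WT libraries had correlations of -0.04 to 0.07, and 0 of 5 matched best with their own number, so the numbers pair nothing that these data show. In the block fit Akap11 and Pmepa1 were called. With 1 surrogate variable Gsg1l lost its call (adjusted p = 0.0598, edgeR). The heterozygous count was 1 throughout. The single call at 4 weeks became 31 in DESeq2, 2 without the 4 libraries of low dopamine score, and 1 to 3 with 1 library left out (3 without KO 91). The 0 calls between ages became 17 in DESeq2 and 0 to 3 with 1 library left out (3 without 4-week KO 91, 1 without 12-week WT 1). The 1 call between regions became 3 with relative log expression size factors, 26 in DESeq2, 9 in limma-voom with a block and 1 to 23 with 1 library left out: 23 without WT 1, 7 without KO 2, 5 without WT 3, 3 without WT 4 and 2 without KO 1. The cause was not tested. Xist as a covariate was not run, because Xist did not pass the filter. Among list medians, the mural and fibroblast genes ran from -0.63 to 0.01 (without WT 4), the blood genes from -2.17 to 0.83 (without WT 2) and the serotonin genes from -0.03 (without KO 5) to 0.34 over 11 settings, the dopamine genes from -0.43 to -0.21 and the microglia genes from -0.38 to -0.28. In the simulation of the KO comparison about as many genes changed by 0.5 in log2 were missed as found. For the difference between ages 13 of 55 were found. Small changes can therefore be missed at 5 libraries a group, and more so between ages.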

Other observations

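Genes of general cell functions had medians near that of all genes in 12-week KO nigra. Cytosolic ribosomal protein genes were higher in 28 of 30 cases, with a median of 0.08 and 0 at an unadjusted p under 0.05 or called by edgeR. In HET 1 of the 30 was lower, with a median of 0.09. Mitochondrial electron transport genes had a median of 0.02 with 19 of 30 higher, and sterol synthesis genes 0.05 with 16 of 22 higher. Autophagy genes had 12 higher and 12 lower, with a median of 0.00. Lysosome and V-ATPase genes were lower in 15 of 20 cases, with a median of -0.03, where the progranulin gene Grn had -0.20. GABA-A receptor subunits had a median of 0.05 with 9 of 14 higher, where Gabrq had 0.44, Gabra5 0.41 and Gabrd -0.80. Of the haem and iron genes 8 were higher and 8 lower, and Fam210b was the single call. Blood genes were lower in 4 of 4 tested cases, with a median of -1.53, but WT 2 stood apart in them and the median turned to 0.83 without it. Sex-linked genes had a median of -0.01.

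The levels of the called genes were also set beside the dopamine score in the 12 WT and HET libraries of 4-week nigra, none of which enters the 12-week comparison. Pearson's r and Spearman's rho were 0.90 and 0.92 for Fam210b, with permutation p of 1e-05, the smallest that 100000 resamples can give, and 8e-05 (adjusted over 5 genes, 2.5e-05 and 0.0002). They were 0.97 and 0.93 for Vill (adjusted permutation p = 2.5e-05 and 0.00015), 0.77 and 0.85 for Gsg1l (0.00482 and 0.00153) and 0.72 and 0.73 for Pmepa1 (0.0107 and 0.0108). For Gm21685 they were -0.31 and -0.15 (0.316 and 0.636). WT 42 and WT 92, whose dopamine scores were lowest, had thalamic scores of 7.13 and 5.86, against 3.41 to 6.11 in the other 10. Without these 2 libraries r was 0.93 for Fam210b, 0.89 for Vill, 0.91 for Gsg1l, 0.84 for Pmepa1 and 0.37 for Gm21685. In 4 of the 12 libraries whole numbers made up at most 5.24% of values, and in the other 8 at least 17.3%. Within those 8, r was 0.84 for Fam210b, 0.97 for Vill, 0.58 for Gsg1l, 0.92 for Pmepa1 and -0.21 for Gm21685. The group of 4 was too small for a value. The correlations pooled the genotypes, whose dopamine scores ran from 2.62 to 5.77 in WT and from 5.05 to 6.33 in HET. They were run for the called genes only. The p-values therefore do not set these genes apart from others that vary with the dissected tissue or with genotype. The part of dissection and of genotype in these correlations was not tested.

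The sum of Gm21685 and Entpd4 followed the library numbers across regions at 12 weeks. WT 5 was the lowest WT library in 6 of 6 regions, HET 5 the highest HET library in 6 of 6 and KO 5 the highest KO library in 5 of 6, with KO 3 highest in striatum. At 4 weeks WT 142 was the lowest WT library in 6 of 6 regions. The labels do not say whether a number marks 1 animal.

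Genes called in 12-week KO striatum other than Akap11 were looked up in 12-week nigra. Of 378 genes lower in striatum, 200 (52.9%) were lower in nigra, with a median of -0.01. At an unadjusted p under 0.05, 29 of them were lower and 21 higher in nigra. The 3 called in nigra were Pmepa1, Gsg1l and Gm21685, beside 0.0364% of all genes. Of 280 genes higher in striatum, 167 (59.6%) were higher in nigra, with a median of 0.02, and 0 were called by edgeR. At an unadjusted p under 0.05, 17 of them were higher and 8 lower in nigra, beside 2.47% higher and 3.7% lower over all genes. Over all genes tested in nigra, 52.2% were lower and 47.8% higher.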
